A study of Mus musculus with 47 samples.

Results

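The genes described here are 50 genes of mitosis: the kinases and the transcription factor that control it, the proteins that condense and separate chromosomes, the kinetochore, the spindle and the machinery of cytokinesis. They were chosen by name from knowledge of cell division, matched by symbol without regard to case, and found as 50 of the 21980 gene symbols used from the deposited table. RNA was sequenced from 3 cell fractions sorted from the mammary glands of FVB mice, labelled luminal mature (LM), luminal progenitor (LP) and mammary stem cells (MSC). All mice were ovariectomized, so the ovarian hormones were absent unless given. The treatments lasted 14 days. One group was a sham control, another was given estradiol plus progesterone, abbreviated EP, and 2 groups were given an antagonist on top of EP: telapristone acetate in the group EP+TPA, and mifepristone in the group EP+RU486. Each fraction and treatment had 4 libraries from separate mice, except LM under EP with 3, which made 47 libraries from 20 mice. Both antagonists are steroids that block the progesterone receptor, and mifepristone also binds the glucocorticoid receptor. Neither doses nor the ages of the mice stand in the labels.

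Cells copy their DNA and then make the proteins that divide it, so the messages of mitotic genes are most abundant shortly before and during division and nearly absent from resting cells. In a tissue the level of these messages therefore follows the share of cells in the last part of the cell cycle, and in RNA from many cells a larger share of dividing cells and more RNA in each dividing cell cannot be told apart. In the mammary gland, estrogen and progesterone drive epithelial division, and the progesterone receptor lies mostly in luminal mature cells, which signal to their neighbours through secreted factors. Many promoters of late cell cycle genes carry a short element called CHR, usually near CCAAT boxes. The CHR is bound by the MuvB complex, which represses these genes in resting cells as the DREAM complex and activates them with MYBL2 and FOXM1 in dividing cells.

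Promoter sequences of 42 of the 50 genes were found by symbol in RefSeq (GRCm38.p6), as windows of 300 bases that run from 250 before the start of transcription to 50 after it. AURKB, FOXM1, INCENP, KIF20A, SMC4, SPC24, STMN1 and TPX2 were not matched. The letters of the CHR, TTTGAA on either strand, stood in 36 of the 44 windows of these genes (81.8%) and in 14.7% of the 19993 windows of all genes of the table. CCAAT on either strand stood in 77.3% of the members' windows against 37.9%, and both stood in 72.7% against 5.9%. A half-site of the progesterone and glucocorticoid receptors, TGTTCT on either strand, was in 11.4% of the members' windows and 15.9% of all windows. Sites of the estrogen receptor were not searched for. These shares describe letters in a window and were not tested. The last 100 bases before the start are shown for 6 genes that hold both elements, and for BIRC5 and MAD2L1, whose windows hold neither. All of these genes, with or without the elements, were higher under EP than in sham in LP. PRC1 has 2 starts in RefSeq, and the bases before the downstream one are shown; those before the other start break off inside the same TTTGAA. Capitals mark TTTGAA or its reverse complement and CCAAT or its reverse complement.
CDK1 (chr10:69352913-69353012, minus strand): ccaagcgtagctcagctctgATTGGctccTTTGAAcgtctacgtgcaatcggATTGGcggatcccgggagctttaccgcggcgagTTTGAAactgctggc
TOP2A (chr11:99024190-99024289, minus strand): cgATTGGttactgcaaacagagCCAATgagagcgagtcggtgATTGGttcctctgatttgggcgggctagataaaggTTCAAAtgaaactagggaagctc
UBE2C (chr2:164769829-164769928, plus strand): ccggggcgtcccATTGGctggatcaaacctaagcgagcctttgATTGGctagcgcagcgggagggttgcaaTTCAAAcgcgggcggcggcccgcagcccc
KIF11 (chr19:37376282-37376381, plus strand): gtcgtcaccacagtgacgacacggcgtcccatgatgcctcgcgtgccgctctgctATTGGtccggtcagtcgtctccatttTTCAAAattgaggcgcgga
CDC20 (chr4:118437344-118437443, minus strand): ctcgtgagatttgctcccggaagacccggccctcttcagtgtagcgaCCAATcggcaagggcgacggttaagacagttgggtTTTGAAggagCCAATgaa
PRC1 (chr7:80294376-80294475, plus strand): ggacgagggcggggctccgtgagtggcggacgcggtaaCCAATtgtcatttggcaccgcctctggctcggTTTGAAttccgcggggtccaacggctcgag
BIRC5 (chr11:117849137-117849236, plus strand): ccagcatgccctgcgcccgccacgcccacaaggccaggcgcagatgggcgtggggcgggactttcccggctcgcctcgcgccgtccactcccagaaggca
MAD2L1 (chr6:66535121-66535220, plus strand): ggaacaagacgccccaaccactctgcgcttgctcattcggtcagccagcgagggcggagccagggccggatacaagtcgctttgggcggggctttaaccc

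The deposited values are on the scale of FPKM, fragments scaled to transcript length and to the size of the library, so they can be compared between genes of different length. From identical values shared between libraries, they were inferred to have been adjusted further within 3 sets of libraries. These were the 15 LM libraries, the 16 LP libraries with 6 MSC libraries, and the other 10 MSC libraries. Within a set each gene's lowest value is often shared by several libraries, and levels in different sets are not on a common scale, so LM is never compared with LP or MSC here. The values are not counts, so the depth of each library is unknown. The LM libraries under an antagonist did not show most markers of their label. Of 10 luminal mature markers, PRLR, FOXA1, AREG, TNFSF11, WNT4 and CITED1 were listed at 0 in all 4 LM libraries under EP+RU486, and these and PGR in 3 of the 4 under EP+TPA, while 1 of the 10, TNFSF11, was at 0 throughout LM sham and none throughout LM under EP. Every LM comparison with these groups is therefore between libraries that differ in the markers of the fraction, and the part of that in the results was not tested. One LM library under EP+TPA, that of mouse 332, stood apart from its group on these genes, and results that rest on it are given with and without it. After rescaling within a set by factors of 0.509 to 1.313, differences were tested with limma on log2(value + 1), with the Benjamini-Hochberg adjustment over all genes tested and 0.05 as the threshold. A difference below is on that log2(value + 1) scale, which understates the change of genes with low values. A gene was tested in a fraction when at least 3 libraries reached 1. That left 47 of the 50 genes in LM, 45 in LP and 39 in MSC. CENPF, ASPM and ESPL1 did not reach it in any fraction, CENPE and KIF15 did not in LP or MSC, and MKI67, BUB1, TTK, NUF2, KIF4 and HMMR did not in MSC. The filter favours genes that are high under EP: 22 of the 47 genes in LM, 18 of the 45 in LP and 7 of the 39 in MSC reached it only with the EP libraries counted.

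EP raised these genes in both luminal fractions. In LP, all 45 genes tested were higher under EP than in sham, where 16.3% of the 11384 genes tested were higher, and their median difference was 1.77. In LM, 44 of the 47 genes tested were higher, where 10.3% of all genes tested were, with a median of 1.91. Without the filter, which tests all 50, 50 were higher in LP (11.5% of all genes) and 46 in LM (7% of all genes), and ASPM, AURKA, MAD2L1 and SMC4 were the LM genes that missed the threshold. Among the genes that reached the filter without the EP libraries, 27 of 27 in LP and 22 of 25 in LM were higher. For every one of the 50 genes the lowest EP library lay above the highest sham library in LM and in LP. The share of all genes with such a separation was not determined. The mean of log2(value + 1) over the 50 genes was 0.760 ± 0.031 (SD, n = 4) in LP sham and 2.43 ± 0.322 (n = 4) in LP under EP. In LM it was 0.362 ± 0.047 (n = 4) in sham and 2.31 ± 0.447 (n = 3) under EP.

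**Figure D1:**
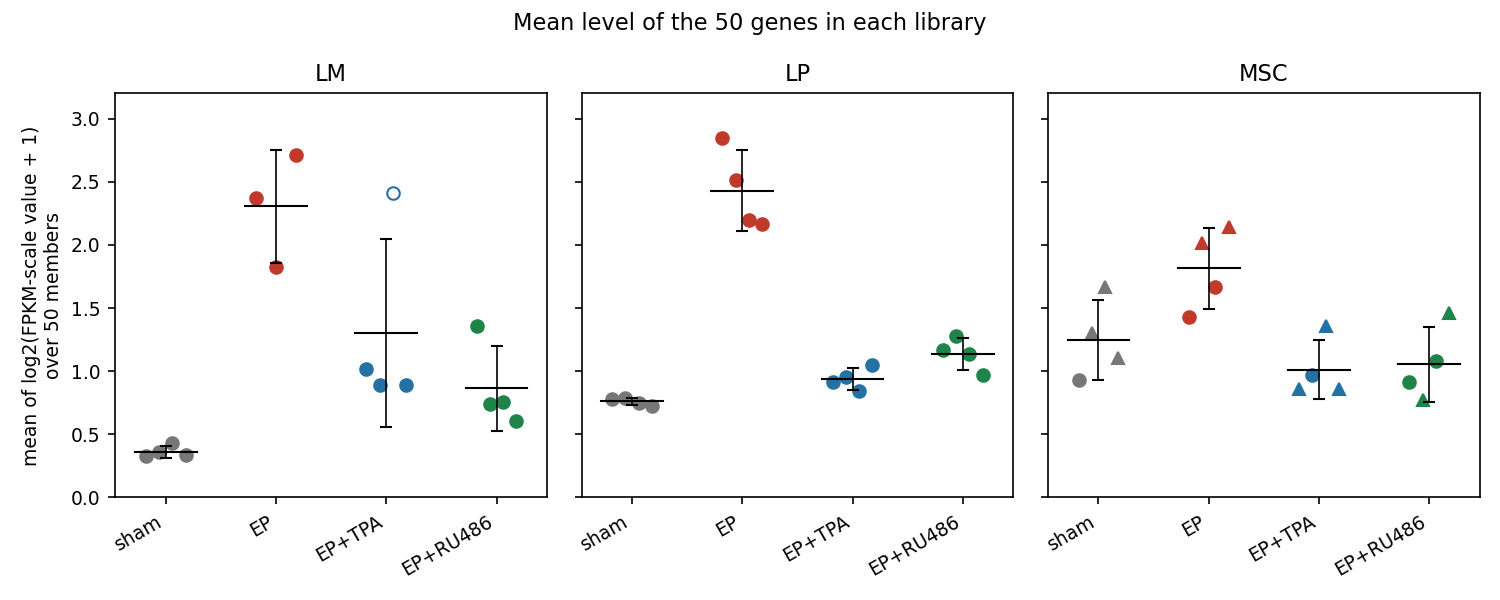
Mean of log2(FPKM-scale value + 1) over the 50 genes in each library, by fraction and treatment; points are libraries, bars the group mean and SD, triangles the MSC libraries of the set that holds no LP library, and the open point is LM mouse 332. In LM and LP the EP libraries lie between 1.83 and 2.85, and the sham libraries between 0.324 and 0.790.

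Both antagonists lowered these genes in LP. Under EP+TPA all 45 genes tested were lower than under EP, where 10.6% of all genes were lower, with a median difference of -1.58. Under EP+RU486 all 45 were lower, where 11.8% of all genes were, with a median of -1.39. Without the filter 50 of 50 were lower with each antagonist, against 7.78% of all genes for EP+TPA and 8.81% for EP+RU486. The mean over the 50 genes was 0.938 ± 0.085 (SD, n = 4) under EP+TPA and 1.14 ± 0.129 (n = 4) under EP+RU486, between the sham and the EP means. In LM, EP+RU486 lowered 44 of the 47 genes tested, where 9.55% of all genes were lower, with a median of -1.49. Without the filter 43 of 50 were lower (6.36% of all genes). This LM count fell to 22 of 41 without EP mouse 306, to 17 of 41 without EP mouse 327 and to 28 of 47 without RU486 mouse 333, while the median difference stayed between -1.53 and -1.32 in these fits.

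The LM libraries under EP+TPA did not form one group. Mouse 332 had a mean over the 50 genes of 2.41, within the EP range of 1.83 to 2.72, while the other 3 libraries lay at 0.893, 0.893 and 1.01. With all 4 libraries, only CCNF, TTK, SPC25 and NDC80 of the 47 genes tested were lower than under EP (3.2% of all genes were lower), and the median difference was -1.07. That count was 0 without EP mouse 306 or 327 or without TPA mouse 312 or 328, and 1 without TPA mouse 336. Without mouse 332, all 41 genes tested were lower, where 9.15% of all genes were lower, and the median was -1.50. Mouse 332 was singled out by its values for these same genes, so leaving it out favours such a result. The filter of that fit also counted the EP libraries. The count therefore describes the other libraries and is no independent test. For all 50 genes the remaining 3 libraries lay below every EP library, against 2 of the 50 with mouse 332 included. How many of all genes did so was not determined. No LP or MSC library of mouse 332 was analysed here, so the library has no second fraction to be compared with. In the same comparison without mouse 332, 9 of 10 endothelial markers were higher than under EP (9.56% of all genes were higher), with a median difference of 1.03, and 6 of 10 were higher than in sham. The luminal progenitor marker sum of mouse 332, 722, lay in the EP range of 543 to 813, and 2 of its 10 luminal mature markers were at 0 against 7 in each of the other 3 libraries, while its luminal mature sum of 198 was the lowest of the EP+TPA group and below the EP range of 303 to 1489. Whether the library carries the treatment of its label was not tested.

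**Figure D2:**
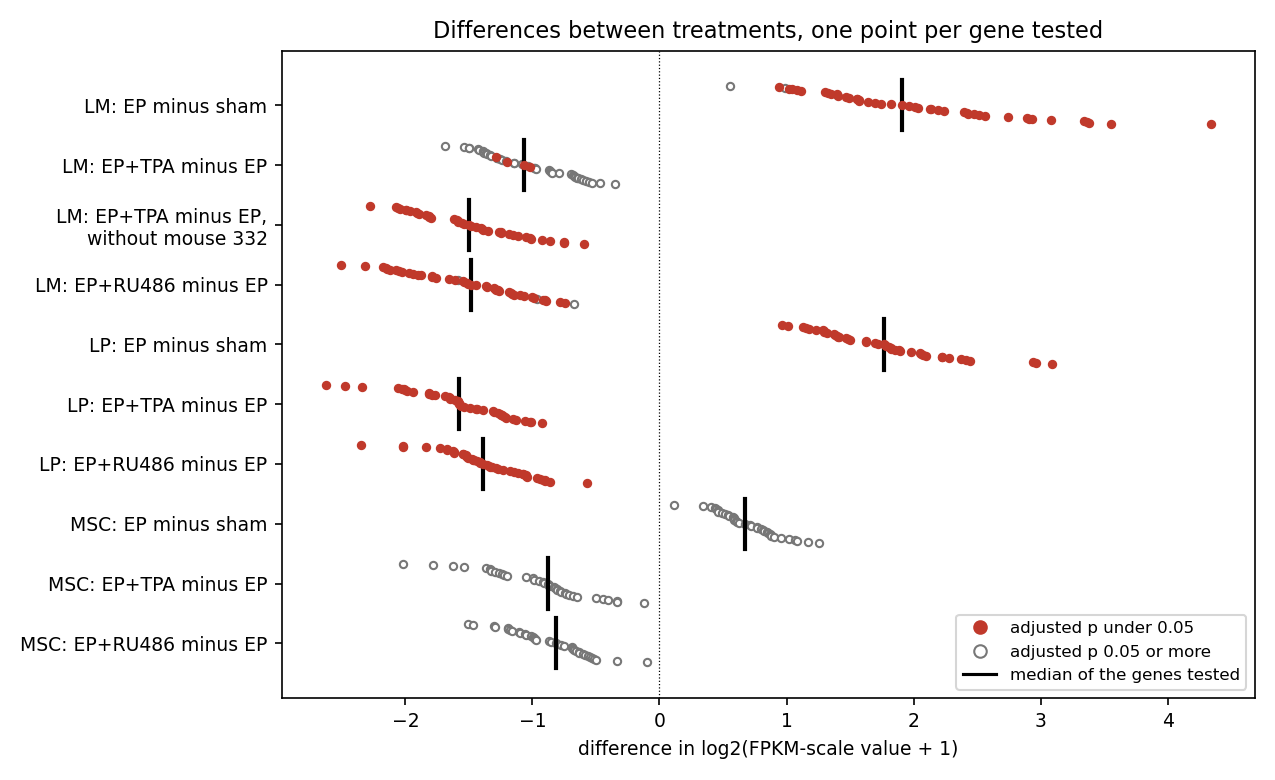
Difference between treatments in log2(FPKM-scale value + 1), one point per gene tested, red where the limma adjusted p is under 0.05 and open where it is not, with the median as a black bar. LM under EP+TPA is drawn with all 4 libraries and without mouse 332, and all points of the LP rows are red.

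Among the genes that control mitosis, CDK1, the kinase that drives entry into mitosis, was nearly off in sham and rose with EP. The LP libraries had CDK1 at 0.441, 0.523, 0.564 and 0.577 in sham, 4.81, 5.05, 7.18 and 9.38 under EP, 0.642, 0.799, 0.926 and 1.14 under EP+TPA, and 0.844, 1.14, 1.62 and 2.22 under EP+RU486. CDK1 in LM was at 0 in all 4 sham libraries, 3.58, 5.16 and 9.65 under EP, 1.16, 1.24, 1.31 and 4.56 under EP+TPA, and 0.623, 0.838, 0.995 and 2.43 under EP+RU486. CDK1 in LP was thus higher in every EP library than in any other library, by 2.28 (SE 0.19, adjusted p = 5.72e-07) over sham, and fell by 1.98 (SE 0.19, adjusted p = 5.47e-06) with EP+TPA and by 1.62 (SE 0.19, adjusted p = 3.49e-05) with EP+RU486. In LM it was listed at 0 in all 4 sham libraries, so no ratio is given, and the difference from EP was 2.74 (SE 0.35, adjusted p = 0.000203). PLK1, a kinase of centrosomes, kinetochores and cytokinesis, was lower overall with the same order. In LP, the values of PLK1 were 0.226, 0.226, 0.343 and 0.393 in sham, 2.21, 2.72, 3.52 and 6.15 under EP, 0.336, 0.389, 0.421 and 0.499 under EP+TPA, and 0.287, 0.438, 0.743 and 0.743 under EP+RU486. PLK1 rose by 1.78 (SE 0.19, adjusted p = 6.68e-06) in LP and by 1.91 (SE 0.38, adjusted p = 0.00366) in LM. FOXM1, a transcription factor for many of these genes, moved less. Values of FOXM1 in the LP libraries were 0.516, 0.523, 0.649 and 0.696 in sham, 1.61, 1.68, 2.49 and 3.36 under EP, 0.327, 0.623, 0.685 and 0.736 under EP+TPA, and 0.540, 0.699, 0.721 and 0.869 under EP+RU486. Its difference from sham was 1.01 (SE 0.15, adjusted p = 0.000144) in LP and 1.12 (SE 0.26, adjusted p = 0.00909) in LM. AURKA, the kinase of spindle poles, rose by 1.38 (SE 0.19, adjusted p = 5.3e-05) in LP. The LM libraries had AURKA at 0.913, 1.14, 1.94 and 2.16 in sham, 2.21, 4.13 and 6.27 under EP, 0.773, 1.05, 1.83 and 4.46 under EP+TPA, and 0.597, 1.12, 1.47 and 1.77 under EP+RU486. In LM its highest sham library, at 2.16, came close to the lowest EP library, at 2.21, and the difference of 0.99 (SE 0.36, adjusted p = 0.0645) missed the threshold.

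CCNF, the F-box protein cyclin F, which marks proteins for destruction in the second gap phase, behaved unlike the others in LM. CCNF in LM was at 0.909, 1.25, 1.29 and 1.33 in sham, 3.12, 3.35 and 4.13 under EP, 0.207, 1.17, 1.69 and 2.48 under EP+TPA, and 0 in all 4 libraries under EP+RU486. It was listed at 0 in all 4 EP+RU486 libraries, below every sham library. Of the 50 genes, 25 lay wholly above sham there and no other lay wholly below, and the shares of all genes were not determined. The difference from EP was -2.17 (SE 0.26, adjusted p = 0.000491) and that from sham -1.13 (SE 0.24, adjusted p = 0.00412). CCNF was the only 1 of the 47 genes lower than sham under EP+RU486 in LM, where 11.9% of all genes tested were lower. In LP it was above 0 in every library. In LP, the values of CCNF were 0.742, 0.951, 1.11 and 1.17 in sham, 2.26, 2.63, 3.39 and 5.85 under EP, 0.530, 0.586, 0.680 and 1.79 under EP+TPA, and 0.534, 0.723, 0.752 and 0.852 under EP+RU486. There CCNF rose by 1.13 (SE 0.21, adjusted p = 0.000971) with EP and did not differ from sham under EP+RU486 beyond its error, at -0.22 (SE 0.21, adjusted p = 0.572). The values had been adjusted before deposit, so a value of 0 does not show that the message is absent.

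**Figure D3:**
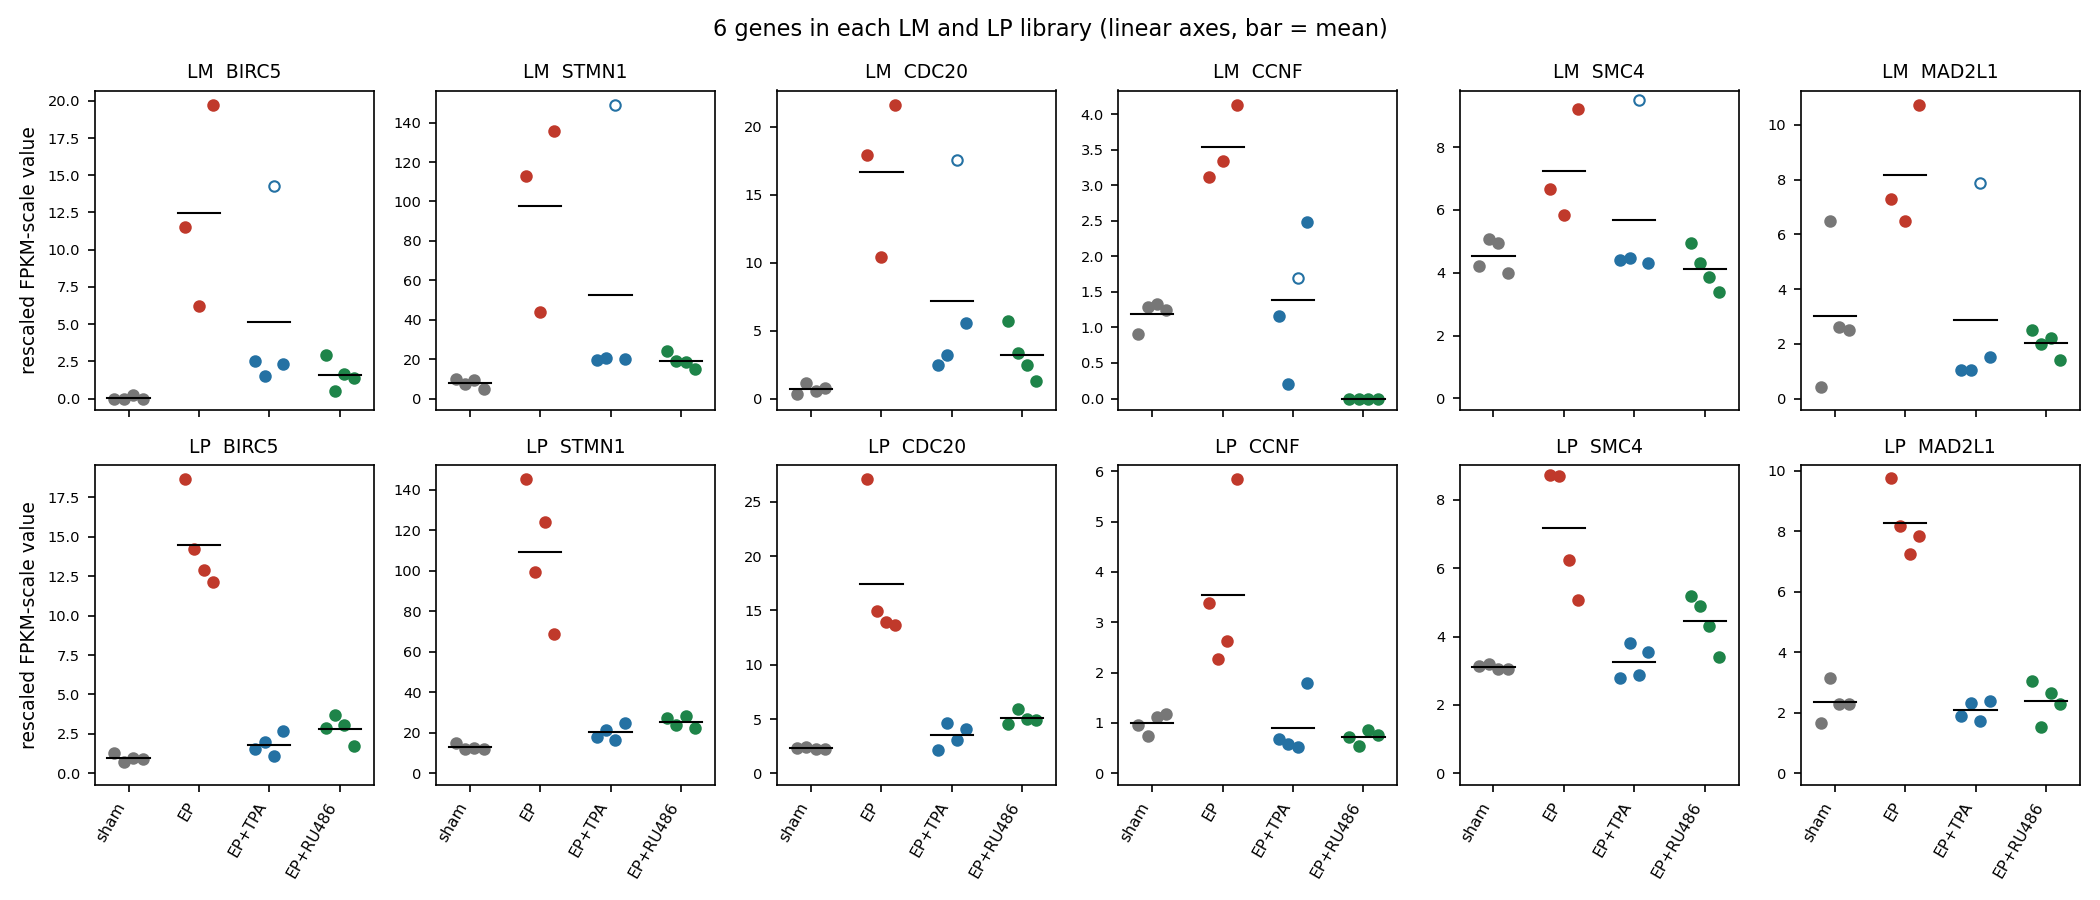
Rescaled FPKM-scale values of BIRC5, STMN1, CDC20, CCNF, SMC4 and MAD2L1 in each LM (top) and LP (bottom) library on linear axes; points are libraries, bars group means, and the open point is LM mouse 332. CCNF stands at 0 in the 4 LM libraries under EP+RU486, and SMC4 and MAD2L1 have LM sham values up to 5.08 and 6.49.

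Of the genes of chromosome structure, TOP2A, the topoisomerase that untangles sister chromatids, had the widest range of values in LM and in LP. Values of TOP2A in the LP libraries were 0.632, 0.707, 0.813 and 0.876 in sham, 5.02, 5.88, 8.85 and 9.99 under EP, 0.838, 0.872, 1.07 and 1.30 under EP+TPA, and 0.790, 1.41, 2.15 and 2.18 under EP+RU486. The LM libraries had TOP2A at 0, 0, 0 and 0.104 in sham, 4.67, 6.60 and 9.20 under EP, 0.719, 0.898, 2.09 and 6.10 under EP+TPA, and 0.506, 0.602, 0.766 and 2.35 under EP+RU486. The EP libraries stood above all sham libraries in both fractions, with differences of 2.22 (SE 0.20, adjusted p = 1.25e-06) in LP and 2.89 (SE 0.41, adjusted p = 0.000456) in LM. MKI67, the coat protein of mitotic chromosomes whose protein Ki-67 is the usual stain for dividing cells, had low values throughout. MKI67 in LP was at 0.0695, 0.0947, 0.0998 and 0.144 in sham, 1.08, 1.45, 1.51 and 1.78 under EP, 0.139, 0.150, 0.176 and 0.229 under EP+TPA, and 0.173, 0.348, 0.369 and 0.370 under EP+RU486. MKI67 rose by 1.15 (SE 0.11, adjusted p = 1.65e-06) in LP and by 1.09 (SE 0.25, adjusted p = 0.00837) in LM, and it reached 1 in LP only in the EP libraries. The condensin genes NCAPD2, NCAPG, NCAPH, SMC2 and SMC4, whose products compact chromosomes, did not move alike. NCAPG rose by 1.40 (SE 0.17, adjusted p = 1.66e-05) in LP, from at most 0.308 in sham to at least 1.65 under EP.

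SMC4, a core subunit shared by both condensins, was already high without hormones. In LM, the values of SMC4 were 3.98, 4.20, 4.93 and 5.08 in sham, 5.83, 6.68 and 9.22 under EP, 4.31, 4.42, 4.46 and 9.50 under EP+TPA, and 3.39, 3.88, 4.32 and 4.96 under EP+RU486. Values of SMC4 in the LP libraries were 3.04, 3.06, 3.15 and 3.19 in sham, 5.06, 6.25, 8.70 and 8.71 under EP, 2.78, 2.86, 3.55 and 3.80 under EP+TPA, and 3.41, 4.29, 4.88 and 5.17 under EP+RU486. In LM its difference of 0.56 (SE 0.24, adjusted p = 0.114) missed the threshold, though the 3 EP libraries lay above the 4 sham libraries. In LP it passed with 0.96 (SE 0.15, adjusted p = 0.000244), the smallest difference of the 45 genes tested, and EP+RU486 left it above sham in each of the 4 libraries. SMC4 was also the gene with the smallest fall under either antagonist in LP, -0.92 (SE 0.15, adjusted p = 0.00065) with EP+TPA and -0.57 (SE 0.15, adjusted p = 0.0151) with EP+RU486. In LM neither SMC4 nor NCAPD2 passed the test of EP+RU486 against EP, with -0.67 (SE 0.24, adjusted p = 0.0631) for SMC4 and -0.96 (SE 0.35, adjusted p = 0.0661) for NCAPD2.

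The chromosomal passenger complex, which corrects faulty attachments of chromosomes and later directs the cleavage furrow, consists of the kinase AURKB, its scaffold INCENP, survivin (BIRC5) and borealin (CDCA8). All 4 genes rose with EP in both luminal fractions, with a median difference of 2.30 in LP and 2.90 in LM. BIRC5 showed the clearest separation of treatments. The LP libraries had BIRC5 at 0.716, 0.910, 0.946 and 1.29 in sham, 12.1, 12.9, 14.2 and 18.6 under EP, 1.08, 1.54, 1.97 and 2.67 under EP+TPA, and 1.73, 2.87, 3.07 and 3.69 under EP+RU486. BIRC5 in LM was at 0, 0, 0 and 0.207 in sham, 6.20, 11.5 and 19.7 under EP, 1.55, 2.30, 2.49 and 14.3 under EP+TPA, and 0.491, 1.39, 1.62 and 2.96 under EP+RU486. The difference from sham was 2.97 (SE 0.19, adjusted p = 6.31e-08) in LP and 3.55 (SE 0.52, adjusted p = 0.000731) in LM, the largest in LM after that of UBE2C. AURKB was at 0 in the 4 LM sham libraries and at 3.17 to 7.37 under EP. Its fall with EP+RU486 was -2.03 (SE 0.50, adjusted p = 0.0135) in LM and -1.84 (SE 0.18, adjusted p = 9.55e-06) in LP. BIRC5 under EP+RU486 in LP remained above sham by 0.95 (SE 0.19, adjusted p = 0.00533), with every such library above every sham library.

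The spindle checkpoint holds back separation until each kinetochore is attached. BUB1B, which encodes the checkpoint protein BubR1, was low in sham and rose with EP. In LM, the values of BUB1B were 0, 0, 0 and 0.363 in sham, 2.90, 5.90 and 7.72 under EP, 0.411, 0.466, 0.796 and 5.13 under EP+TPA, and 0.202, 0.275, 0.339 and 2.28 under EP+RU486. In LM, mouse 308 stood apart from the other EP+RU486 libraries, and mouse 332 from the other EP+TPA libraries. BUB1B differed from sham by 2.51 (SE 0.48, adjusted p = 0.00322) in LM and by 1.98 (SE 0.25, adjusted p = 3.11e-05) in LP. MAD2L1, which binds and restrains CDC20, was the checkpoint gene that did not pass in LM. Values of MAD2L1 in the LM libraries were 0.426, 2.51, 2.62 and 6.49 in sham, 6.49, 7.29 and 10.7 under EP, 1.03, 1.06, 1.50 and 7.89 under EP+TPA, and 1.40, 2.01, 2.20 and 2.52 under EP+RU486. One sham library reached the lowest EP library to 3 digits, and the difference was 1.40 (SE 0.52, adjusted p = 0.0743) with EP and -1.58 (SE 0.52, adjusted p = 0.05) for EP+RU486 against EP, neither of which was called. In LP the sham values were closer together, and MAD2L1 rose by 1.48 (SE 0.16, adjusted p = 6.2e-06). The LP libraries had MAD2L1 at 1.67, 2.28, 2.30 and 3.13 in sham, 7.26, 7.86, 8.18 and 9.77 under EP, 1.74, 1.88, 2.32 and 2.38 under EP+TPA, and 1.54, 2.29, 2.65 and 3.04 under EP+RU486.

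The 8 kinetochore and centromere genes include 4 subunits of the NDC80 complex (NDC80, NUF2, SPC24 and SPC25), which grips microtubules, the centromeric histone CENPA, CENPN, which reads it, the motor CENPE and the large coiled-coil protein CENPF. The 6 tested in LP and the 7 tested in LM were all higher under EP than in sham, with medians of 1.70 in both fractions. NDC80 in LM was at 0, 0, 0.0242 and 0.222 in sham, 1.80, 4.35 and 4.39 under EP, 0.180, 0.455, 0.749 and 2.29 under EP+TPA, and 0.238, 0.439, 0.632 and 0.799 under EP+RU486. NDC80 had the largest fall of the 4 genes called lower under EP+TPA in LM with mouse 332 included, at -1.29 (SE 0.30, adjusted p = 0.0277). CENPA was at 0.912 or more in every LM library, sham included. In LP, the values of CENPA were 0.983, 0.984, 1.29 and 2.16 in sham, 6.69, 6.86, 7.63 and 9.25 under EP, 1.26, 1.33, 1.98 and 3.17 under EP+TPA, and 1.14, 2.05, 2.32 and 2.72 under EP+RU486. CENPA rose by 1.89 (SE 0.21, adjusted p = 1.15e-05) in LP and by 1.70 (SE 0.37, adjusted p = 0.00601) in LM. CENPF was too low to be tested, and its highest value in LP was 1.28. Values of CENPF in the LP libraries were 0.0554, 0.0631, 0.0830 and 0.0934 in sham, 0.507, 0.517, 0.620 and 1.28 under EP, 0.0518, 0.0816, 0.110 and 0.127 under EP+TPA, and 0.0918, 0.154, 0.172 and 0.261 under EP+RU486. The 4 EP libraries of CENPF nonetheless stood above the 12 others.

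Kinesins are motors that walk on microtubules: KIF11 pushes the spindle poles apart, KIF2C takes microtubules apart at kinetochores, KIF4, KIF15 and KIF22 act on chromosomes and spindle, and KIF20A and KIF23 work at the central spindle. All 7 passed as higher under EP in LM, and the 6 tested did in LP. The LP libraries had KIF11 at 0.292, 0.329, 0.378 and 0.387 in sham, 2.54, 2.79, 4.29 and 5.51 under EP, 0.423, 0.453, 0.500 and 0.534 under EP+TPA, and 0.395, 0.742, 0.751 and 0.880 under EP+RU486. KIF11 in LM was at 0 in all 4 sham libraries, 2.54, 3.15 and 4.73 under EP, 0.0923, 0.238, 0.472 and 3.27 under EP+TPA, and 0, 0.0428, 0.106 and 1.22 under EP+RU486. KIF11 was listed at 0 in every LM sham library and rose with EP by 1.78 (SE 0.16, adjusted p = 1.43e-06) in LP. KIF20A, which was not at 0 in LM sham, differed by 1.96 (SE 0.34, adjusted p = 0.00161) there. KIF23 fell by 1.56 (SE 0.16, adjusted p = 1.19e-05) with EP+TPA and by 1.32 (SE 0.16, adjusted p = 6.84e-05) with EP+RU486 in LP. KIF22 had the widest LM difference between EP+TPA and EP once mouse 332 was left out, -2.28 (SE 0.32, adjusted p = 0.000181).

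STMN1, which encodes stathmin, a protein that destabilizes microtubules until mitotic kinases switch it off, had the highest mean level of the 50 genes in every fraction and treatment. In LP, the values of STMN1 were 12.0, 12.1, 12.6 and 14.8 in sham, 68.8, 99.5, 124 and 145 under EP, 16.6, 17.8, 21.6 and 25.0 under EP+TPA, and 22.2, 23.8, 27.3 and 28.3 under EP+RU486. Values of STMN1 in the LM libraries were 4.63, 7.60, 9.28 and 10.1 in sham, 44.0, 113 and 136 under EP, 19.5, 20.3, 20.7 and 149 under EP+TPA, and 15.2, 18.5, 19.2 and 24.1 under EP+RU486. No EP library of either fraction overlapped a sham library, and the 3 LM libraries under EP+TPA other than mouse 332 lay at 19.5 to 20.7. STMN1 rose by 2.94 (SE 0.19, adjusted p = 6.31e-08) in LP and by 3.37 (SE 0.60, adjusted p = 0.00263) in LM. It stayed above sham under EP+RU486 in LP, by 0.92 (SE 0.19, adjusted p = 0.00534). After STMN1, the highest means under EP in each luminal fraction were those of UBE2C and CDC20, whose libraries overlapped, and the lowest was that of ASPM. TPX2, which builds microtubules around chromosomes, rose by 1.81 (SE 0.15, adjusted p = 7.54e-07) in LP and by 2.01 (SE 0.36, adjusted p = 0.00197) in LM, and NUSAP1, HMMR and CKAP2 rose in both fractions.

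In the last steps of division, PRC1 bundles the central spindle, RACGAP1 and ECT2 turn on the contractile ring, and anillin (ANLN) holds it to the membrane. The 4 genes rose with EP in both fractions, with medians of 1.82 in LP and 2.55 in LM. The LM libraries had PRC1 at 0, 0, 0.00109 and 0.450 in sham, 5.70, 7.40 and 9.02 under EP, 1.13, 2.54, 2.73 and 4.84 under EP+TPA, and 0.602, 0.813, 1.08 and 4.46 under EP+RU486. PRC1 was the gene of LM sham whose 1 library at 0.45 stood apart from 3 near 0. It rose by 2.91 (SE 0.38, adjusted p = 0.000285) in LM and by 2.06 (SE 0.19, adjusted p = 1.51e-06) in LP. ANLN was low in LP sham and rose with EP. ANLN in LP was at 0.288, 0.314, 0.338 and 0.380 in sham, 2.10, 2.11, 2.29 and 2.58 under EP, 0.331, 0.340, 0.529 and 0.827 under EP+TPA, and 0.442, 0.520, 0.799 and 1.01 under EP+RU486. Its difference from sham was 1.30 (SE 0.13, adjusted p = 3.41e-06) in LP, and EP+TPA lowered it by 1.13 (SE 0.13, adjusted p = 2.71e-05).

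Exit from mitosis depends on the anaphase promoting complex, which CDC20 activates and which UBE2C supplies with ubiquitin. Of the 50 genes, UBE2C had the largest difference between EP and sham in LM and in LP. In LP, the values of UBE2C were 1.94, 2.30, 2.34 and 2.54 in sham, 22.5, 25.1, 25.1 and 36.8 under EP, 2.20, 2.83, 4.25 and 5.56 under EP+TPA, and 3.37, 3.43, 4.16 and 7.94 under EP+RU486. Values of UBE2C in the LM libraries were 0 in all 4 sham libraries, 11.7, 21.8 and 27.6 under EP, 2.49, 4.73, 6.70 and 26.5 under EP+TPA, and 0.514, 1.71, 2.62 and 9.87 under EP+RU486. It was listed at 0 in the 4 LM sham libraries, and the difference from EP was 4.34 (SE 0.66, adjusted p = 0.000943) in LM and 3.09 (SE 0.24, adjusted p = 4.04e-07) in LP. CDC20 rose by 2.42 (SE 0.20, adjusted p = 5.72e-07) in LP and 3.34 (SE 0.49, adjusted p = 0.000661) in LM. The LP libraries had CDC20 at 2.21, 2.26, 2.37 and 2.43 in sham, 13.7, 13.9, 15.0 and 27.1 under EP, 2.17, 3.06, 4.05 and 4.66 under EP+TPA, and 4.52, 4.92, 5.04 and 5.90 under EP+RU486. One EP library, mouse 306, stood well above the other 3. ESPL1, the protease separase that cuts cohesin, was too low to be tested in any fraction, while CDCA3, an F-box-like protein, rose in both luminal fractions.

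**Figure D4:**
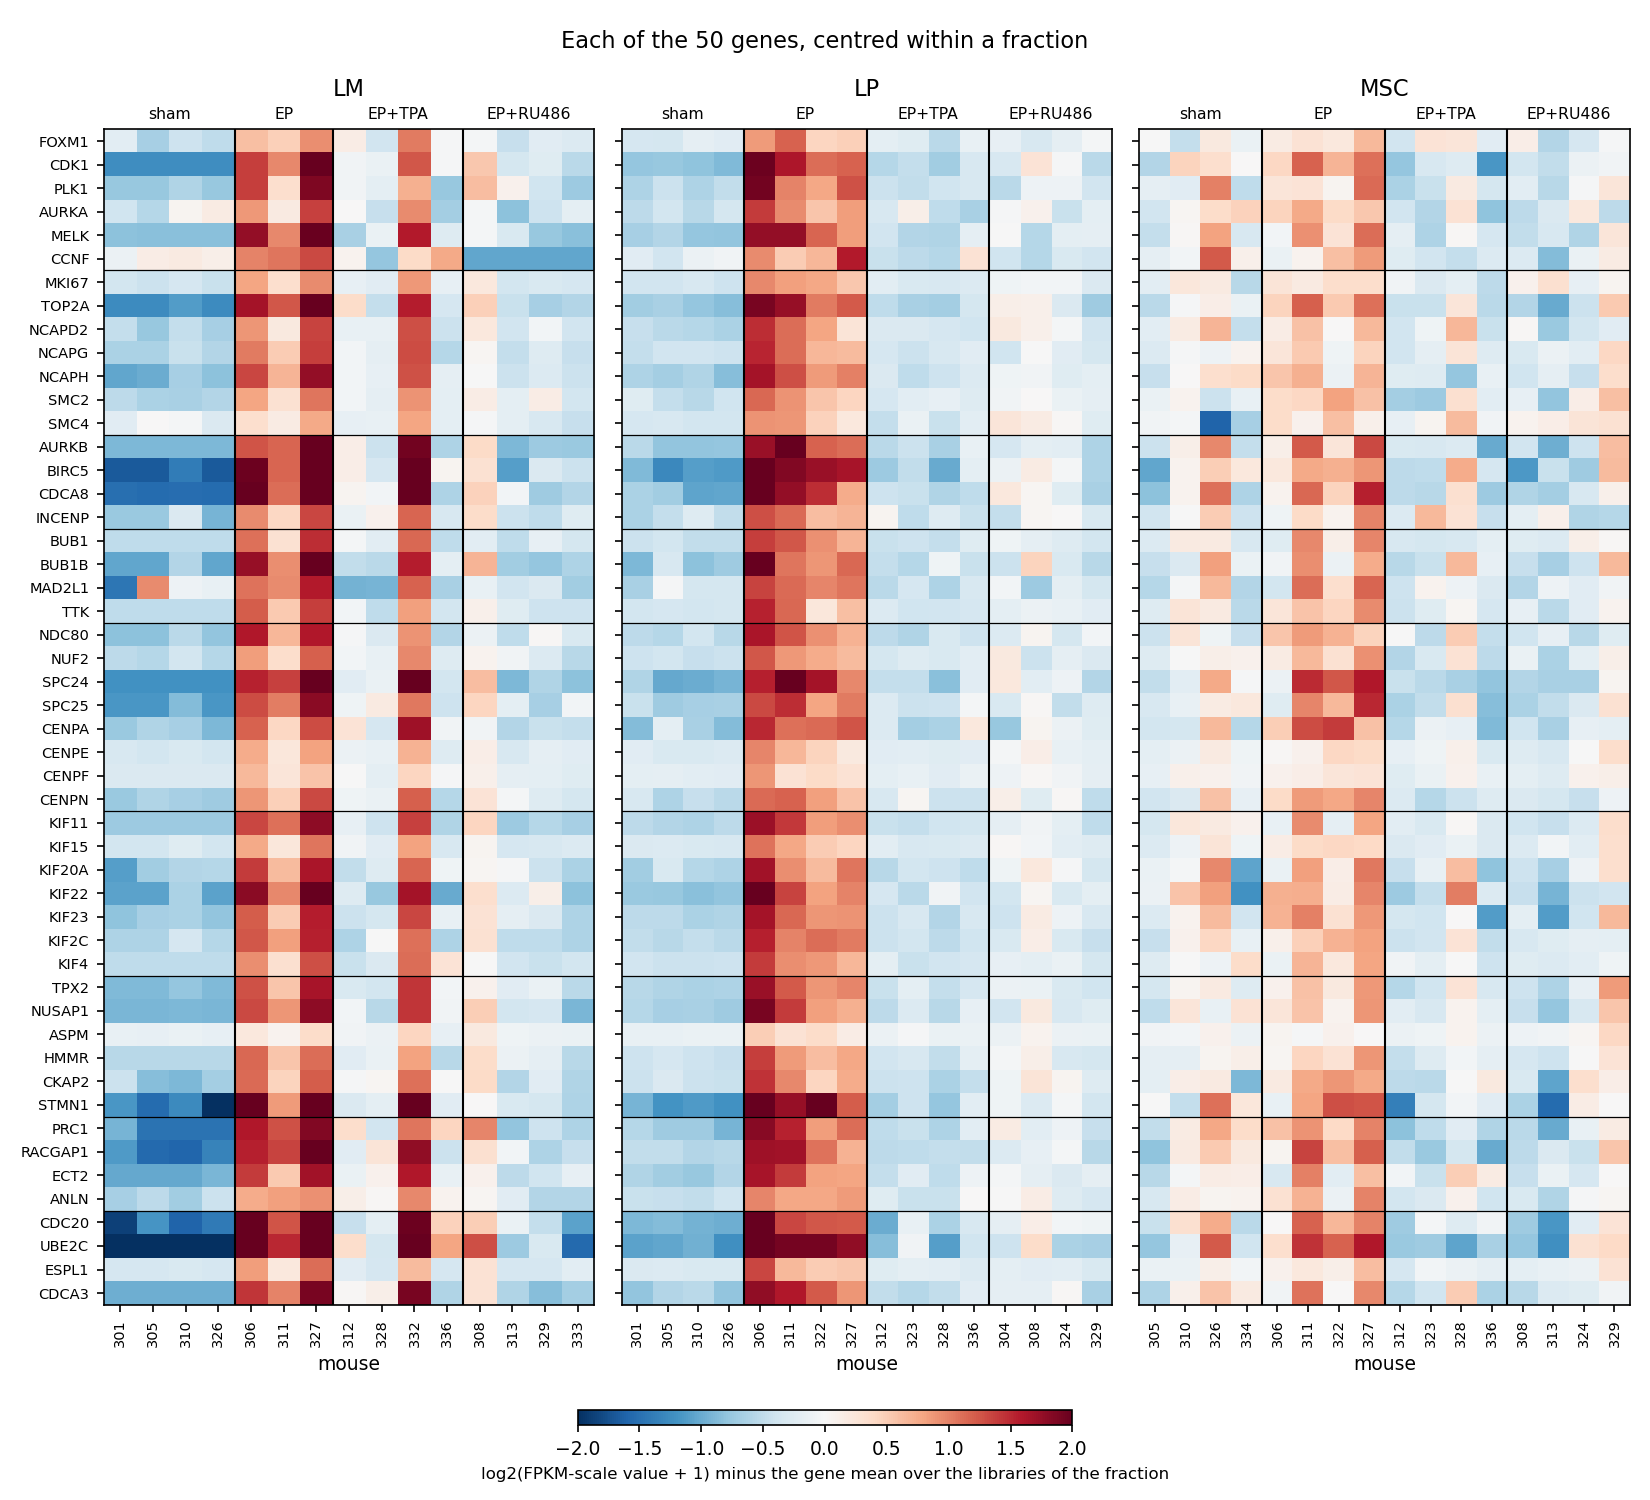
The 50 genes (rows, grouped by role) in each library (columns, by treatment and mouse), as log2(FPKM-scale value + 1) minus the gene's mean over the libraries of the fraction; each panel is centred on its own mean and MSC holds 2 separately adjusted sets. In LM and LP the EP columns are red across the rows, and so is mouse 332 under EP+TPA in LM.

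Under an antagonist, LP came back closer to sham than to EP, with most differences from sham above 0 for either compound. None of the 45 genes differed between EP+TPA and sham in LP, where 1.79% of all genes were higher, and 4 had an unadjusted p under 0.05. The median difference was 0.18, and 41 of the 45 differences were above 0. Under EP+RU486, 44 of the 45 differences from sham were above 0. An unadjusted p under 0.05 was found for 25 of the 45, and for 2917 of all 11384 genes tested. Called higher than sham were 6 genes: BIRC5, STMN1, CDC20, SPC24, CDK1 and NCAPH, with a median over the 45 of 0.37 and 4.24% of all genes higher. This count fell to 3 without any 1 of the RU486 mice 304, 308 and 324 or of the sham mice 305, 310 and 326. It was 4 without sham mouse 301 and rose to 9 without RU486 mouse 329. In LM, 18 of the 47 genes were higher under EP+TPA than in sham, where 6.87% of all genes were higher, and 14 of 41 without mouse 332, where 7.55% were. Those 14 genes include BIRC5, CDK1, TOP2A, PRC1, RACGAP1, CDC20 and UBE2C. UBE2C in LM was at 2.49, 4.73 and 6.70 in the 3 other EP+TPA libraries, all above the 4 sham libraries at 0. For EP+RU486 against sham in LM, 5 of the 47 genes were higher (9.74% of all genes were): UBE2C, RACGAP1, PRC1, CDK1 and SPC25. The number of higher genes was 0 without RU486 mouse 308 or sham mouse 326, 1 without sham mouse 305 or 310, 2 without RU486 mouse 313, and 3 without sham mouse 301 or RU486 mouse 329, with CCNF called lower each time.

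With all libraries, the test called none of these genes different between the 2 antagonists. In LP, 0 of the 45 genes tested differed between EP+TPA and EP+RU486, as did 0% of all 11384 genes, 5 of the 45 having an unadjusted p under 0.05. The median difference, EP+TPA minus EP+RU486, was -0.19, and only 1 of the 45 differences was above 0. Differences in LP ran from -0.48 (95% interval -0.85 to -0.12) for CKAP2 to 0.10 (95% interval -0.35 to 0.56) for CCNF. For BIRC5 the LP difference was -0.45 (95% interval -0.86 to -0.05), and for TOP2A -0.35 (95% interval -0.77 to 0.07). In LM, too, 0 of the 47 genes differed (0% of all genes), with 3 at an unadjusted p under 0.05. The intervals were wider there, at 1.18 (95% interval -0.13 to 2.49) for UBE2C and 0.90 (95% interval -0.13 to 1.94) for BIRC5. For CCNF, at 0 under EP+RU486, the LM difference was 1.15 (95% interval 0.64 to 1.67), with an adjusted p of 0.323. Without TPA mouse 328, 1 of the 47 genes passed in LM. A p that misses the threshold does not show that the compounds act alike. The LM differences were above 0 for 47 of 47 genes with mouse 332, with a median of 0.41. Without it they were above 0 for 25 of 41 genes, with a median of 0.07. The genes share libraries, so these counts of directions are not independent. Both steroids carry a dimethylaminophenyl group at the same position, and they differ in the side chains of ring D, a hydroxyl with a propynyl group in mifepristone, an acetate ester with a methoxyacetyl group in telapristone acetate. Doses of the compounds are not given in the sources used here.

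In MSC, no gene of the 50 passed the test in any comparison of treatments, and neither did any other gene of the fraction. EP against sham gave 0 of 39 genes (0% of 12188), with 25 of the 39 at an unadjusted p under 0.05 and 645 of all genes. EP+TPA and EP+RU486 against EP gave 0 of 39 each (0% and 0%), with 32 and 31 at an unadjusted p under 0.05. EP+TPA and EP+RU486 against sham, and against each other, gave 0 as well (0%, 0% and 0%), with 4, 1 and 1 at an unadjusted p under 0.05. The difference between EP and sham was above 0 for 39 of 39 genes, with a median of 0.67, and below 0 for 39 of 39 under each antagonist against EP, with medians of -0.88 for EP+TPA and -0.82 for EP+RU486. The filter favours these directions for 7 of the 39, which reached it only with the EP libraries. Over the 32 others the medians were 0.69 for EP against sham, -0.91 for EP+TPA against EP and -0.84 for EP+RU486 against EP. The MSC libraries come from 2 separately adjusted sets, so ranges are compared only within the larger one, which holds 3 sham, 2 EP, 3 EP+TPA and 2 EP+RU486 libraries. There EP lay wholly above sham for 30 of the 39 genes (7.36% of all genes tested in MSC did), EP+TPA wholly below EP for 35 (13.1%) and EP+RU486 wholly below EP for 35 (17.7%). In a fit of that set alone the median differences over 38 genes were 0.74, -1.06 and -1.10, and none of the 38 passed. Without EP mouse 306, 4 of 38 genes were lower under EP+TPA than under EP. The MSC libraries differed widely in their basal markers, as given below, and the part of that in these results was not tested.

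UBE2C in MSC was at 3.02, 4.21, 5.09 and 15.0 in sham, 7.67, 14.5, 17.6 and 19.7 under EP, 2.31, 3.06, 3.19 and 3.35 under EP+TPA, and 1.91, 2.99, 7.40 and 7.98 under EP+RU486. UBE2C differed by 1.25 (95% interval 0.31 to 2.20) between EP and sham and by -2.02 (95% interval -2.96 to -1.07) between EP+TPA and EP, with adjusted p = 0.849 and 0.219. In MSC, the values of TOP2A were 0.973, 1.61, 1.81 and 2.14 in sham, 2.91, 3.15, 5.15 and 5.57 under EP, 0.969, 1.11, 1.11 and 2.38 under EP+TPA, and 0.429, 0.915, 1.14 and 3.12 under EP+RU486. These values join both sets and are not on a common scale. Within the larger set, TOP2A was at 5.15 and 5.57 under EP, above the 3 sham libraries at 1.61 to 2.14, and mouse 329 under EP+RU486, at 3.12, lay between them. The sham library of mouse 326 was the highest of the 3 sham libraries of that set for BIRC5 at 5.32, STMN1 at 82.3 and UBE2C at 15.0. Mouse 305 is the only sham mouse whose MSC library shares the adjustment of the LP libraries. Whether the effect of EP differs between MSC and LP was not tested.

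MSC and LP could be compared on one scale in 6 mice: 305 (sham), 306 (EP), 308 (EP+RU486), 322 (EP), 323 (EP+TPA) and 324 (EP+RU486). Of 38 genes tested, 6 were lower in MSC (16.5% of all genes were lower) and SMC4 was higher (22.7% of all genes were higher), with a median of -0.38, MSC minus LP. The 6 were CDCA8, BUB1B, RACGAP1, ECT2, CDCA3 and MELK, a share no larger than that among all genes. RACGAP1 was at 2.09, 13.0, 2.88, 8.17, 2.03 and 3.23 in LP of these mice in that order, and at 1.09, 2.80, 1.54, 4.51, 1.17 and 1.66 in MSC. It was lower in MSC in 6 of 6 mice, by -0.82 (SE 0.18, adjusted p = 0.00546). SMC4 was higher in MSC in 5 of the 6 mice, by 0.39 (SE 0.13, adjusted p = 0.0315). The direction for SMC4 reversed to -0.14 without rescaling, and the count of called genes was then 28. With each mouse as a block 3 genes were called, all of them lower, and SMC4 was no longer called (adjusted p = 0.0538). It was not called with upper-quartile factors either (adjusted p = 0.0778), nor without mouse 305, 308, 322, 323 or 324, with adjusted p of 0.0698 to 0.126. Leaving out 1 mouse gave 9 called genes without mouse 305, 3 without mouse 306 and 1 without mouse 308. It gave 1 without mouse 322, 6 without mouse 323 and 2 without mouse 324.

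Other genes of mitosis, 70 chosen by name and not among the 50, moved with them in part. In LM 36 of the 53 tested were higher under EP than in sham (10.3% of all genes were), with a median of 1.26. In LP 45 of the 55 tested were higher (16.3% of all genes were), with a median of 1.04. None was lower in either fraction. The filter, which favours genes that are high under EP, left these 53 and 55 of the 70. How many of them reached it without the EP libraries was not determined. The largest differences were those of the mitotic kinase PBK, 3.49 (SE 0.48, adjusted p = 0.000458) in LM and 2.71 (SE 0.22, adjusted p = 5.35e-07) in LP, of cyclin A2 (CCNA2) in LM, 3.24 (SE 0.50, adjusted p = 0.00093), and of cyclin B2 (CCNB2) in LP, 2.62 (SE 0.20, adjusted p = 4.04e-07). EP+TPA lowered 44 and EP+RU486 46 of the 55 in LP, where 10.6% and 11.8% of all genes were lower. In LM EP+RU486 lowered 35 of the 53 (9.55% of all genes). EP+TPA lowered 2 of the 53 there (3.2% of all genes), or 30 of 46 without mouse 332 (9.15% of all genes). The 13 core subunits of the anaphase promoting complex, which are present through the cell cycle, had medians near 0: 2 of 13 were higher under EP in LM, where 10.3% of all genes were, and 3 higher with 1 lower in LP, where 16.3% and 16.1% were. Of the 10 genes of cohesin and its loaders, 0 passed in LM and 1, PDS5B, in LP, at 0.41 (SE 0.15, adjusted p = 0.0472). Of the 13 genes of MuvB, DREAM and MYBL2, 3 were higher and 3 lower under EP in LM, where 10.3% and 9.14% of all genes were, and 4 and 3 in LP, where 16.3% and 16.1% were. MYBL2, the activator that joins MuvB, rose by 1.75 (SE 0.13, adjusted p = 2.51e-07) in LP and by 1.68 (SE 0.38, adjusted p = 0.00784) in LM. The retinoblastoma gene RB1, whose product is no subunit of MuvB or DREAM, fell by 2.09 (SE 0.30, adjusted p = 0.000115) in LP and by 2.10 (SE 0.63, adjusted p = 0.0326) in LM.

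Summed markers of cell types also differed between treatments. The summed value of 9 luminal progenitor markers (9 of 9 above the lowest value in LP) was 7993 to 14338 in LP sham, 875 to 4086 under EP, 8118 to 10361 under EP+TPA and 7417 to 9794 under EP+RU486. In LM it was 3691 to 11106 in sham, 543 to 813 under EP, 722 to 10254 under EP+TPA and 10402 to 13365 under EP+RU486, with the 722 in mouse 332. Endothelial markers in LM summed to 303 to 402 in sham, 245 to 338 under EP, 223 to 720 under EP+TPA, with the 223 in mouse 332, and 377 to 637 under EP+RU486, and with all libraries 0 of 10 passed in any LM comparison of treatments. The 10 luminal mature markers summed to 1007 to 1578 in LM sham, 303 to 1489 under EP, 198 to 263 under EP+TPA, with the 198 in mouse 332, and 233 to 248 under EP+RU486. Against sham, 8 of the 10 were lower under EP+RU486 in LM, with a median of -3.63, and 7 of the 10 under EP+TPA, with a median of -3.09, where 11.9% and 9.26% of all genes were lower. S100A6 and TSPAN8 made up most of these sums under the antagonists, except in mouse 332, where TSPAN8 was at 0. Basal markers (11 of 11 in the table) summed to 218 to 264 over the LP libraries, and to 935 to 1945 over the LM libraries. The MSC libraries were far from uniform. In the larger MSC set basal markers summed to 8.03 in mouse 313 under EP+RU486, with 9 of 11 at 0, and up to 4464 in sham mouse 326. In the MSC libraries adjusted with LP they summed to 878 to 11191. The MSC library of EP mouse 327 had 10 of 10 endothelial markers at 0. Fibroblast markers summed to 115 to 223 in LP under EP and 29.2 to 160 in LP sham. Immune markers summed to 34.2 to 152 in LP sham and 25.7 to 177 under EP. Red blood cell markers summed to 31.4 to 75.1 and 25.5 to 135. Over all libraries of a fraction no listed marker was at 0 throughout. In the 6 mice compared, MSC had 10 of 11 basal markers higher, 8 of 9 luminal progenitor markers lower and 9 of 10 endothelial markers higher than LP. Because LM was adjusted as a set of its own, its levels could not be set against those of the other fractions. The part of these shifts in cell makeup in the changes of the 50 genes was not tested.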

How the data were processed

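RNA-seq libraries of sorted mammary fractions were made from polyA RNA with a SMART-Seq kit for low input, per the labels' protocols. The submitters' processing notes name mm9 as the mouse build and the tools STAR, Cufflinks and DESeq2, with no roles. The authors deposited 1 table of values on the FPKM scale. A further adjustment within 3 sets of libraries is inferred from identical positive values, which libraries share within a set and not between sets. The lowest values of a gene are often tied, and some values are 0. How the adjustment was done is not given in the sources used here. It removes differences between sets, can shrink the spread within a set and makes low values uncertain.

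Of 22007 symbols, 27 that read as dates were left out. Mouse numbers in the labels tie fractions of 1 mouse together, and each group holds separate mice. Within a set, median-ratio factors rescaled each library, leaving the tied lowest value of a gene where it was. Genes with a value of at least 1, and above that tied value, in at least 3 libraries were tested with limma 3.58.1 in R 4.3.3 on log2(value + 1), with trend and robust empirical Bayes. The 4 treatments of a fraction were fitted together, with a term for the set in MSC, and the Benjamini-Hochberg adjustment ran over every gene tested in the fit. MSC was compared with LP in the 6 mice with both fractions in 1 set, with treatment as a term; the mouse as a block was an alternative. Deviations of the LP and MSC libraries of a mouse from their group means correlated with r of 0.1633 (EP, mice 306 and 322) and 0.2796 (EP+RU486, mice 308 and 324). The deviations of the mice in each pair mirror each other, so both mice give the same r. These r therefore cannot decide whether the mouse matters. The fits were tested on simulated data.

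Any of the 50 genes could be named. Values of every library are given for 24 genes chosen over the 9 roles, for the largest and smallest differences called and for exceptions; genes of other lists are named where they had the 2 largest differences called. The genes and lists were chosen with earlier results of these data known. Alternatives were no rescaling, upper-quartile factors, a pseudocount of 0.1, no filter, only the 2 groups compared, only 1 set or no set term in MSC, and each library left out. Promoter windows came from RefSeq (GRCm38.p6), a later build than that of the values. Python 3.11.15 was used for summaries.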

Additional observations from a re-analysis of the deposited data

Results flagged for a closer look

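Single libraries stood apart from the others of their group in 26 of the 275 groups of 4 libraries tested with Dixon's criterion on these genes, on the log2(value + 1) scale, where chance flags about 1 in 20 when values do not tie at a lowest value. In 5 of the 26, all in LM sham, the other 3 libraries were tied at 0, so that any value above 0 met the criterion, and the count of 26 is not to be read against that rate. The tests share libraries, so the flags are not independent.

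In LM under EP+TPA, mouse 332 was far above the other 3 libraries for 8 genes and for the mean over the 50 genes, which was 2.41. Its values were 4.56 for CDK1, 1.47 for MKI67, 9.50 for SMC4, 5.13 for BUB1B, 7.89 for MAD2L1, 3.85 for KIF23, 149 for STMN1 and 2.33 for ANLN. In LM under EP+RU486, mouse 308 was the high library for MKI67 at 0.567, AURKB at 1.42, BUB1B at 2.28 and KIF11 at 1.22.

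In LM sham, where most values were 0, mouse 310 was the high library for PLK1 at 0.103, TOP2A at 0.104, BIRC5 at 0.207, BUB1B at 0.363, NDC80 at 0.222 and TPX2 at 0.0768, and mouse 301 for PRC1 at 0.45.

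In LP, AURKB stood at 0.64 in sham mouse 301, CDC20 at 27.1 in EP mouse 306, and MKI67 was lowest, at 0.173, in RU486 mouse 329. In MSC under EP+TPA, TOP2A at 2.38 and BIRC5 at 6.47 were high in mouse 328, and AURKB at 0.0472 was low in mouse 336.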

How the results depend on the processing

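The number of the 50 genes called stayed within 1.5 times of the value reported for EP against sham in LM and LP, and for both antagonists against EP in LP, under every alternative tried. Without rescaling, the number called was 8 for LM EP+TPA against EP, 1 for LP EP+TPA against sham, 14 for LP EP+RU486 against sham, 2 for MSC EP+TPA against EP and 28 for MSC against LP, where SMC4 turned from higher to a difference of -0.14. With a pseudocount of 0.1 it was 0 for LM EP+TPA against EP, 30 for LM EP+TPA against sham, 17 for LM EP+RU486 against sham, 1 for LM EP+TPA against EP+RU486 and 18 for LP EP+RU486 against sham. Without the filter it was 1 for LM EP+TPA against EP, 3 for LM EP+RU486 against sham and 3 for MSC against LP. With only the 2 groups compared it was 0 for LM EP+TPA against EP, 19 for LM EP+RU486 against sham, 2 for LP EP+TPA against sham and 17 for LP EP+RU486 against sham. With the mouse as a replicate block, 3 genes were called between MSC and LP instead of 7. The cause of these changes was not tested. Leaving out 1 library at a time gave 0 to 41 for LM EP+TPA against EP, 17 to 45 for LM EP+RU486 against EP, 1 to 5 for LM EP+RU486 against sham, 0 to 1 for LM EP+TPA against EP+RU486, 3 to 9 for LP EP+RU486 against sham, 0 to 4 for MSC EP+TPA against EP and 1 to 9 for MSC against LP. For the 24 genes followed one by one, 4558 of 4763 alternative values kept their side of the threshold, 114 no longer passed, 90 newly passed and 1 reversed. A change of direction where neither fit passed is counted within the 4558. Depth is unknown, and values listed at 0 may be products of the adjustment before deposit, which limits LM most.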
